A study of Mus musculus with 7 samples.

Results

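The 10 genes described here are the erythroid transcription factor genes Gata1, Klf1, Tal1, Nfe2, Zfpm1, Gfi1b, Bcl11a, Lmo2 and Ldb1 and the erythropoietin receptor gene Epor. They were chosen by name, each was measured by 1 probe set annotated to that gene only, and they were read from a fit over 19938 genes. Their RNA levels come from hematopoietic stem cells (HSCs) of female C57BL/6 mice, sorted from bone marrow as Lin-, Sca1+, cKit+, CD150+ and CD48- cells. The mice were Cebpa flox/flox;Mx1Cre (4 arrays, hereafter Cebpa Δ/Δ) or Cebpa flox/flox (3 arrays, hereafter Cebpa fl/fl). Both genotypes carried the floxed Cebpa alleles and received pIC (pIpC), a double-stranded RNA that induces interferon, at 10 to 12 weeks of age, and the HSCs were taken at day 18. Per the study's methods, the mice also drank ciprofloxacin after the deletion. The Mx1 promoter answers to interferon and is not specific to HSCs, so Cebpa can also be deleted in other cells of these mice. The Cebpa fl/fl mice carried no Cre, so an effect of Cre itself and of the loss of Cebpa cannot be told apart. Arrays are called Δ/Δ 1 to 4 and fl/fl 1 to 3 by the replicate numbers in the labels.

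Red cell development is driven by a small set of DNA-binding proteins. GATA1 binds GATA motifs and replaces its relative GATA2 as cells enter the erythroid lineage. In this lineage GATA1 works with its cofactor FOG1, the product of Zfpm1, and in a complex in which TAL1 binds E-boxes, LMO2 forms the bridge and LDB1 joins distant complexes. KLF1 binds CACCC boxes and activates genes of globin, heme and the red cell membrane, and the erythropoietin receptor keeps committed erythroid progenitors alive. TAL1, LMO2, LDB1, GFI1B and BCL11A also have known functions in stem cells, whereas GATA1 and KLF1 are known mainly from the erythroid and related lineages.

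The regions upstream of 4 of these genes are printed because 3 of them, Gata1, Klf1 and Epor, were the members higher in Cebpa Δ/Δ HSCs, and Gfi1b came next in the size of its difference. Each run holds the 250 bases before a RefSeq start of transcription (build GRCm38.p6), 5′ to 3′ on the gene's strand. Capitals mark matches to CACCC, to the E-box CAGATG and to a GATA site (A or T, then GATA, then A or G) on either strand.
Gata1 (chrX:7967911-7968160, minus strand): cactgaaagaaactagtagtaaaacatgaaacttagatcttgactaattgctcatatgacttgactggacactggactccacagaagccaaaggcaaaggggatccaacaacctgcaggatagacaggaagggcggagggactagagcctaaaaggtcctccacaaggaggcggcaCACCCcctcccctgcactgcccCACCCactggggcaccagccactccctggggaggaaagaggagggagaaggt
Klf1 (chr8:84901732-84901981, plus strand): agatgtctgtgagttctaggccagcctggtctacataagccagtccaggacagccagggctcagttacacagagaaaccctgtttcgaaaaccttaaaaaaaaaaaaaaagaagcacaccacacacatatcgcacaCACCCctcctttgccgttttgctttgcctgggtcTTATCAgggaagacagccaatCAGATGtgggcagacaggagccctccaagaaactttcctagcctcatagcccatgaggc
Epor (chr9:21963577-21963826, minus strand): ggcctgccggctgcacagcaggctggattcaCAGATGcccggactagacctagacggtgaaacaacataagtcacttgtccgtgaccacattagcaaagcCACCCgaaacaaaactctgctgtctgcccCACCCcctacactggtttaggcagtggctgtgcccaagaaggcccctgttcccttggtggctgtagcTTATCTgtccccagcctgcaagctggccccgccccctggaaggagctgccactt
Gfi1b (chr2:28621983-28622232, minus strand): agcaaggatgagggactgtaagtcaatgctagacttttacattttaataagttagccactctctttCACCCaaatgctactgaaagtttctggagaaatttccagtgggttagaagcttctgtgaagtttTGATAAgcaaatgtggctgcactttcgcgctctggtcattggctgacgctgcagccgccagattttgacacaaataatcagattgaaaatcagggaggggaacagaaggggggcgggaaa
The Klf1 window held a CACCC box that ended 110 bases before the start, a GATA site from base 80 to base 75 before it and a CAGATG E-box from base 59 to base 54. The Epor window held a GATA site from base 54 to base 49, 2 CACCC boxes and a CAGATG E-box. The Gata1 window lay at a start that is 8753 bases inside the outermost start of the gene and held 2 CACCC boxes and no match to the GATA letters.

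RefSeq windows were found for 8 of the 10 genes, 11 windows in all, since Tal1 had 2 and Ldb1 had 3, while Nfe2 and Lmo2 were not matched. A GATA site was in 5 of these 11 windows, against 26.5% of all 32851 windows of the same length. CACCC was in 10 of 11 (52.0% of all windows) and CAGATG in 2 of 11 (14.4%). The wider E-box CANNTG, which includes CAGATG, was in 6 of 11 (66.2%), and the NF-E2 core TGANTCA was in 0 of 11 (6.75%). Matches of this length are common, and a match of letters is no evidence that a protein is bound.

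**Figure D1:**
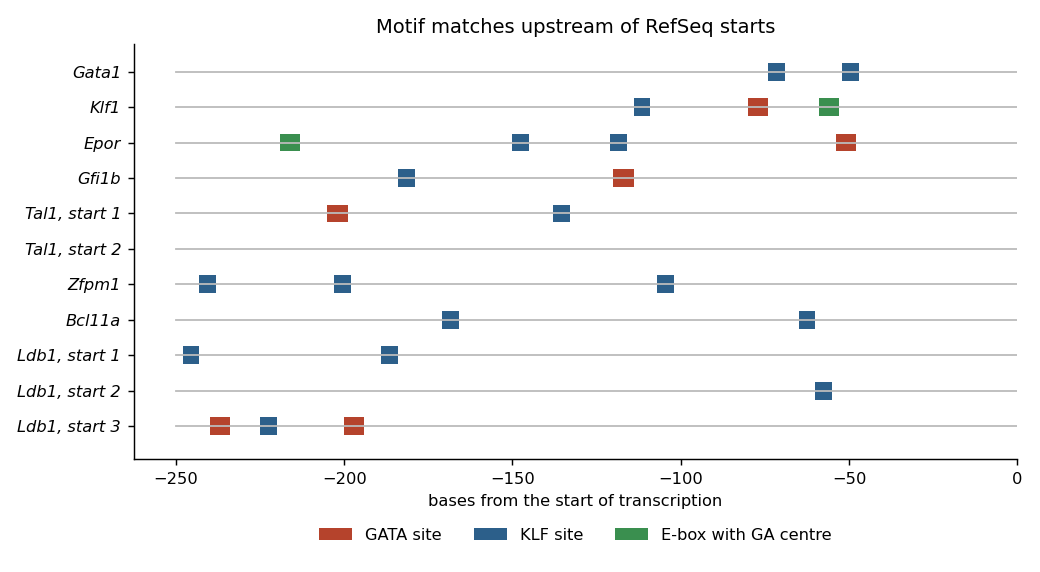
Matches to the GATA letters (red), CACCC (blue) and CAGATG (green) in the 250 bases upstream of 11 RefSeq starts of 8 of the genes; the horizontal axis gives bases from the start of transcription. Klf1 and Epor are the 2 windows that hold all 3 kinds of match, and Gata1 holds CACCC boxes only.

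The sorted populations were checked first. The targeted gene Cebpa had log2 intensities of 5.11, 5.24, 5.27 and 5.27 in Δ/Δ 1 to 4, against 5.54, 5.75 and 5.63 in fl/fl 1 to 3. The stem cell factor receptor gene Kit averaged 10.09 ± 0.27 in Cebpa Δ/Δ and 10.42 ± 0.04 in Cebpa fl/fl HSCs (SD, n = 4 and 3). Slamf1, which encodes CD150, averaged 7.69 ± 0.54 and 7.98 ± 0.09. In Δ/Δ 1 to 4 Kit measured 10.01, 10.38, 9.75 and 10.20, and Slamf1 7.73, 7.95, 6.92 and 8.15. Both were lowest of all arrays in Δ/Δ 3. Every Cebpa Δ/Δ array of Kit lay below every Cebpa fl/fl array, by 0.01. Ly6a, which encodes Sca1, was not analysed here. Cd48, whose product the sort excludes, was at 8.15, 7.70, 8.82 and 6.40 in Cebpa Δ/Δ and at 4.82, 5.61 and 4.62 in Cebpa fl/fl HSCs, so its transcript went against the gate in Cebpa Δ/Δ. Flt3, a receptor gene of multipotent progenitors, was at 7.05, 7.68, 7.09 and 7.26 in Cebpa Δ/Δ and at 6.16, 6.66 and 6.93 in Cebpa fl/fl HSCs (log2 fold change 0.69, SE 0.23). The groups of Flt3 did not overlap, but its call was lost without fl/fl 1 (0.48) and without Δ/Δ 2 (0.55). Hlf, the gene of a transcription factor of stem cells, was at -0.51 (SE 0.23) and did not pass. It too was lowest in Δ/Δ 3 (9.66), whereas the gate and stem cell genes Procr and Cd34 were lowest in Δ/Δ 1 (8.01) and Δ/Δ 4 (9.39). Of 10 measured gate and stem cell genes, Cd48 and Flt3 were the 2 past the study's thresholds. Whether the population behind the gate differed was not tested. Array medians lay between 46.2 and 50.4 on the linear scale, and the arrays correlated with the others at 0.979 to 0.985 on average. The number of arrays limits the precision, and nothing in the labels ties the samples to litters or batches.

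Of the 10 genes, Gata1, Klf1 and Epor were higher in Cebpa Δ/Δ HSCs at the study's thresholds, an unadjusted p under 0.05 with a change over 1.5-fold, and none was lower. The log2 fold changes were 2.11 for Klf1, 1.52 for Gata1 and 1.08 for Epor, which correspond to 4.31-fold, 2.87-fold and 2.12-fold. Over all genes tested, 1.57% were higher and 0.617% lower at the same thresholds. In 3 of the 10 genes, again Gata1, Klf1 and Epor, all Cebpa Δ/Δ arrays lay above all Cebpa fl/fl arrays, and in 1, Lmo2, all lay below, against 3.51% and 2.46% of all genes. By limma, 0 of the 10 genes and 0 of the 19938 (0.0%) passed an adjusted p of 0.05, with or without moderation of the variance. At an unadjusted p under 0.05, 4 of the 10 were higher (4.4% of all genes) and 0 lower. The median log2 fold change was 0.14 over the 10 genes and 0.00 over all genes. A bulk population cannot tell fewer cells with a transcript from less transcript per cell.

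**Figure D2:**
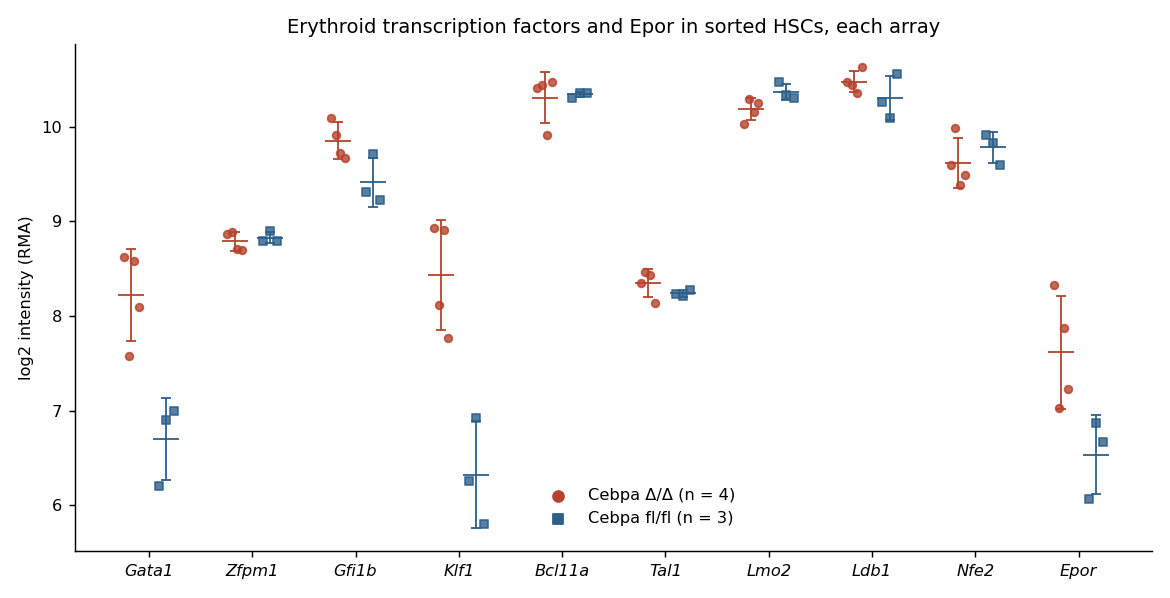
Log2 intensity (vertical axis) of the 10 genes in each array, with Cebpa Δ/Δ HSCs as red circles (n = 4) and Cebpa fl/fl HSCs as blue squares (n = 3); the horizontal bars are means and the whiskers 1 SD. For Gata1, Klf1 and Epor no red circle lies as low as a blue square, whereas the groups overlap for 6 genes and Lmo2 is separated by 0.01 in the other direction. Levels are to be compared within a gene only.

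Gata1, the master regulator of the erythroid and megakaryocytic lineages, measured 8.62, 7.58, 8.58 and 8.10 in Δ/Δ 1 to 4, against 6.21, 6.90 and 6.99 in fl/fl 1 to 3. Every Cebpa Δ/Δ array was above every Cebpa fl/fl array, by at least 0.59, and Δ/Δ 1 and Δ/Δ 3 were the highest. The log2 fold change of Gata1 was 1.52 (SE 0.31; limma p = 0.00233, adjusted p = 0.413), and the exact permutation test (two-sided) gave p = 0.0286, its lower limit for groups of 4 and 3.

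Klf1, which encodes the CACCC-binding activator of red cell genes, measured 8.93, 8.12, 8.91 and 7.77 in Δ/Δ 1 to 4, against 6.25, 6.92 and 5.80 in fl/fl 1 to 3. The groups were separated by 0.85, and again Δ/Δ 1 and Δ/Δ 3 were the highest. The log2 fold change of Klf1 was 2.11 (SE 0.39; limma p = 0.00123, adjusted p = 0.358), the 30th highest of the 19938 genes, with an exact permutation p of 0.0286.

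Epor measured 8.33, 7.03, 7.87 and 7.23 in Δ/Δ 1 to 4, against 6.06, 6.87 and 6.67 in fl/fl 1 to 3. The groups did not overlap, but Δ/Δ 2 lay only 0.17 above fl/fl 2. The log2 fold change of Epor was 1.08 (SE 0.36; limma p = 0.0212, adjusted p = 0.663), with an exact permutation p of 0.0571. The call of Epor rested on single arrays, since its limma p was 0.0823 (log2 fold change 0.85) without fl/fl 1 (adjusted p = 0.744), 0.0555 (0.996) without Δ/Δ 3 and 0.166 (0.76) without both, while Gata1 and Klf1 stayed past both thresholds in each of these fits.

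Gfi1b, Zfpm1 and Bcl11a encode zinc finger proteins that act largely as partners in repression. Gfi1b, a repressor needed in erythroid cells and megakaryocytes, measured 10.10, 9.92, 9.73 and 9.67 in Δ/Δ 1 to 4, against 9.31, 9.71 and 9.22 in fl/fl 1 to 3. Only fl/fl 2 reached into the range of the Cebpa Δ/Δ arrays. Its log2 fold change of 0.44 (SE 0.15; limma p = 0.0268, adjusted p = 0.663) stayed under 1.5-fold, with an exact permutation p of 0.0571. Without fl/fl 2 Gfi1b was at 0.59 and past both thresholds.

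Zfpm1, the gene of the GATA1 cofactor FOG1, measured 8.86, 8.89, 8.71 and 8.69 in Δ/Δ 1 to 4, against 8.80, 8.90 and 8.79 in fl/fl 1 to 3. The groups overlapped throughout, and the log2 fold change of Zfpm1 was -0.04 (SE 0.07). Bcl11a, which silences embryonic and fetal globin genes and is needed for lymphoid development, measured 10.41, 10.45, 9.91 and 10.47 in Δ/Δ 1 to 4, against 10.31, 10.36 and 10.36 in fl/fl 1 to 3. Δ/Δ 3 was alone below all other arrays. The log2 fold change of Bcl11a was -0.03 (SE 0.14), and 0.10 without Δ/Δ 3. Neither gene passed a threshold, and the sign of such small values turned with the processing.

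Tal1, Lmo2 and Ldb1 form the core of the complex with GATA1. Tal1 measured 8.35, 8.47, 8.44 and 8.14 in Δ/Δ 1 to 4, against 8.23, 8.21 and 8.28 in fl/fl 1 to 3, a log2 fold change of 0.11 (SE 0.09). Ldb1 measured 10.48, 10.45, 10.36 and 10.63 in Δ/Δ 1 to 4, against 10.27, 10.10 and 10.56 in fl/fl 1 to 3, a log2 fold change of 0.17 (SE 0.12). In both genes the arrays of the genotypes overlapped. Lmo2 measured 10.04, 10.30, 10.16 and 10.25 in Δ/Δ 1 to 4, against 10.47, 10.34 and 10.31 in fl/fl 1 to 3. All Cebpa Δ/Δ arrays were below all Cebpa fl/fl arrays, by only 0.01, and the log2 fold change of Lmo2 was -0.19 (SE 0.08; exact permutation p = 0.0571). With array medians subtracted the groups of Lmo2 overlapped.

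Nfe2 encodes p45, the large subunit of NF-E2, which pairs with small Maf proteins and is needed for platelet production. It measured 9.60, 9.99, 9.38 and 9.49 in Δ/Δ 1 to 4, against 9.92, 9.83 and 9.60 in fl/fl 1 to 3, and Δ/Δ 2 was the highest array of all. The log2 fold change of Nfe2 was -0.17 (SE 0.16; exact permutation p = 0.343).

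For 6 of the 10 genes, Tal1, Nfe2, Zfpm1, Bcl11a, Lmo2 and Ldb1, the 95% interval of the log2 fold change lay within 1.5-fold in either direction, with bounds from -0.55 (Nfe2) to 0.46 (Ldb1). The intervals of Klf1 (1.18 to 3.04) and Gata1 (0.77 to 2.28) lay above all of these, and that of Epor (0.22 to 1.94) overlapped some of them. The interval of Gfi1b ran from 0.07 to 0.81. The intervals come from the fit over all genes, are not adjusted for the number of genes, and the differences between members were not tested against each other.

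**Figure D3:**
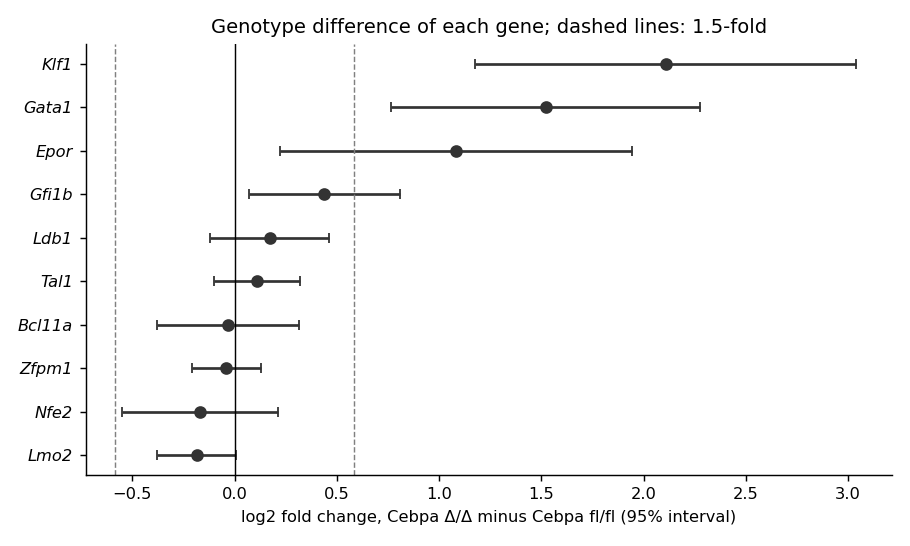
Log2 fold changes (horizontal axis, Cebpa Δ/Δ minus Cebpa fl/fl) of the 10 genes with 95% intervals from limma, ordered by size, with dashed lines at 1.5-fold. The intervals of Klf1 (2.11) and Gata1 (1.52) lie wholly above the upper line, and the intervals of 6 genes lie between the lines.

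The 3 genes that were higher varied in the same way within Cebpa Δ/Δ HSCs. In each of the 3, Δ/Δ 1 was the highest array, and Δ/Δ 1 and Δ/Δ 3 were both above Δ/Δ 2 and Δ/Δ 4. Gata1 and Epor ordered the arrays 1, 3, 4 and 2 from high to low, and Klf1 ordered them 1, 3, 2 and 4. Lmo2 was lowest in Δ/Δ 1 and Nfe2 highest in Δ/Δ 2, so the other members did not share this order. Within Cebpa fl/fl HSCs, Klf1 and Epor were highest in fl/fl 2 and Gata1 in fl/fl 3.

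**Figure D4:**
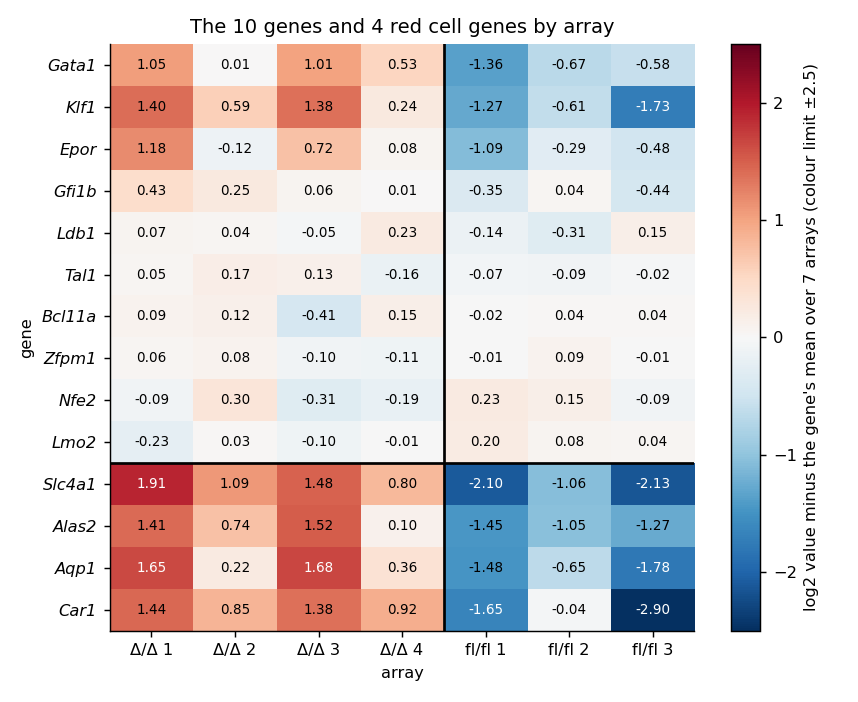
Log2 value of each gene minus its mean over the 7 arrays (colour and printed value; colours stop at 2.5 either way) for the 10 genes (upper block) and 4 red cell genes (lower block), with Δ/Δ 1 to 4 left of fl/fl 1 to 3. Gata1, Klf1, Epor and the red cell genes are higher in Δ/Δ 1 and Δ/Δ 3 than in Δ/Δ 2 and Δ/Δ 4, and the rows from Ldb1 to Lmo2 stay within 0.41 of their mean.

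Most of the measured genes on a list of red cell genes known as targets of GATA1, TAL1 and KLF1 were higher as well. The list does not cover all genes on which these factors act. Gata2, which GATA1 represses, was read in another list. Of 45 listed targets 33 were measured. At the study's thresholds 24 were higher, none lower and 9 neither, against 1.57% higher and 0.617% lower over all genes. The median log2 fold change of the targets was 1.19. The list was chosen with earlier results of these data known, so the count is not independent of those results. 0 of the 33 passed the adjusted threshold in the fit over all genes. The erythrocyte anion exchanger gene Slc4a1 had a log2 fold change of 3.08 (SE 0.36), the membrane skeleton gene Ank1 of 1.94 (SE 0.31) and Mfsd2b, a sphingosine phosphate exporter of red cells, of 1.81 (SE 0.20). Mfsd2b measured 9.53, 8.72, 9.33 and 9.09 in Δ/Δ 1 to 4, against 7.29, 7.57 and 7.20 in fl/fl 1 to 3. Averaged over the targets, log2 values minus each gene's mean were 1.05, 0.28, 0.92 and 0.25 in Δ/Δ 1 to 4, against -1.02, -0.41 and -1.07 in fl/fl 1 to 3. The 9 targets that did not pass had log2 fold changes between 0.17 (Gypc) and 0.64 (Uros). Among them were the carbonic anhydrase gene Car2 (0.34, SE 0.19) and the bisphosphoglycerate mutase gene Bpgm (0.41, SE 0.21). The others were Trim58, Icam4, E2f4, Mkrn1 and Bnip3l. The adult globin genes and Ahsp were not analysed here.

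The remaining proteins of the GATA1 complexes were measured through a list of 22 partners and paralogs. Klf3, which encodes a repressor at CACCC boxes and is itself activated by KLF1, was the 1 gene past the thresholds (log2 fold change 0.70, SE 0.25). It measured 8.75, 8.36, 8.32 and 8.44 in Δ/Δ 1 to 4, against 7.15, 8.07 and 8.07 in fl/fl 1 to 3, with fl/fl 1 lowest of all arrays. The call of Klf3 was lost in 6 of 19 alternatives, namely without fl/fl 1 (0.40, under 1.5-fold), without Δ/Δ 1, without Δ/Δ 4, without fl/fl 1 and Δ/Δ 3, with a replicate block and without moderation of the variance. The other 21 did not pass, and the list's median log2 fold change was -0.04. Gata2, which GATA1 represses in maturing erythroid cells, measured 9.64, 9.92, 9.02 and 9.83 in Δ/Δ 1 to 4, against 9.68, 9.92 and 10.08 in fl/fl 1 to 3, a log2 fold change of -0.29 (SE 0.23; exact permutation p = 0.343). In the same list 3 further genes passed an unadjusted p under 0.05 with changes under 1.5-fold. The LIM-only gene Lmo4 (0.18, SE 0.07) and Ssbp3 (0.30, SE 0.12), whose product stabilises LDB1, were higher. The Zfpm1 paralog Zfpm2 was at -0.19 (SE 0.08). Its mean level lay at percentile 12.6 of all genes, near background, and the groups of Zfpm2 were not separated. Of 18 genes of the NuRD and CoREST corepressors, which FOG1 and GFI1B recruit, 0 passed the thresholds (median 0.01), with Mbd2 at 0.39 (SE 0.11) and Mta3 at 0.31 (SE 0.12). Of 8 small Maf and related genes, from which NF-E2 takes its partner, 0 passed (median -0.01). Of 12 factors of later erythroid maturation, Klf3 alone passed (median 0.01), with the same limits. Over all genes 1.57% were higher and 0.617% lower, and lists this short would hold few or none at that share.

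Downstream of the erythropoietin receptor, none of 29 measured signalling genes passed the study's thresholds, and the median log2 fold change was 0.00. Over all genes 1.57% were higher and 0.617% lower, so a list of this length would hold few or none at that share. The receptor's kinase gene Jak2 (0.11, SE 0.08) and the signal transducer genes Stat5a (-0.03, SE 0.04) and Stat5b (0.04, SE 0.09) were each within 1.5-fold over their 95% intervals. The feedback inhibitor genes of cytokine signalling did not pass and had both signs, with log2 fold changes of -0.59 (SE 0.47) for Cish, -0.20 (SE 0.50) for Socs2, 0.07 (SE 0.08) for Socs1 and 0.61 (SE 0.27) for Socs3. Cish (6.24) and Socs2 (7.34) were both lowest in Δ/Δ 3. The survival kinase gene Pim2 (0.38, SE 0.13) and the lipid phosphatase gene Inpp5d (-0.27, SE 0.11) passed an unadjusted p under 0.05 with changes under 1.5-fold. The erythroblast hormone gene Erfe, a target of erythropoietin, was at 0.07 (SE 0.09).

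**Figure D5:**
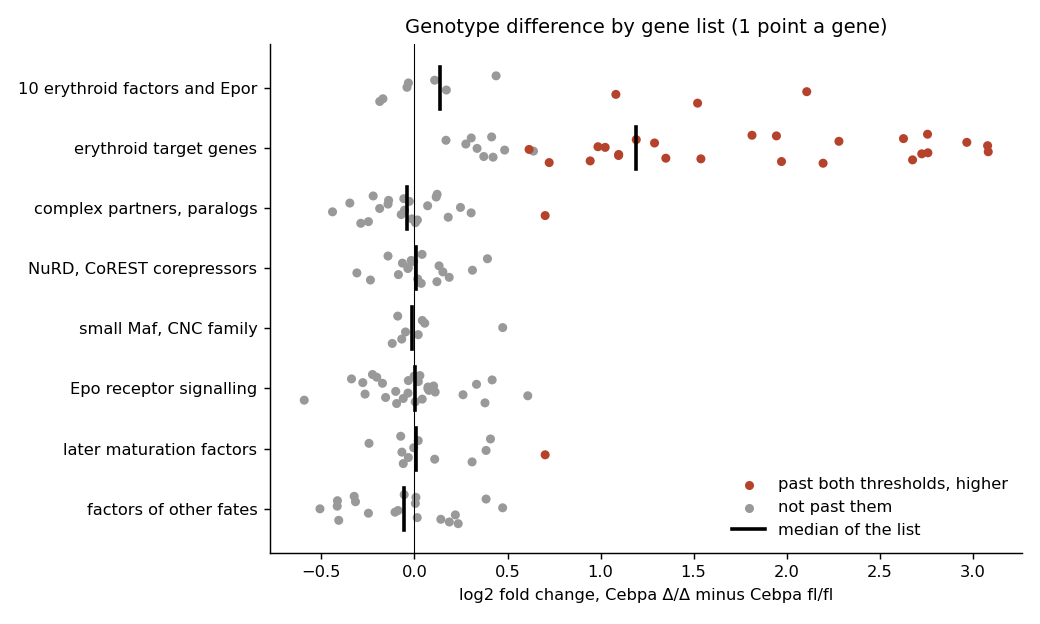
Log2 fold change (horizontal axis, Cebpa Δ/Δ minus Cebpa fl/fl) of each gene, 1 point a gene, by list; red points are genes higher at the study's thresholds, grey points are the rest, and black bars are medians. The erythroid target genes have a median of 1.19 with 24 of 33 red, and the lists of partners, corepressors and signalling genes have medians near 0 with at most 1 red point.

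Factors of other blood fates did not pass the thresholds, 0 of 19 in either direction (median -0.06), against 1.57% higher and 0.617% lower over all genes. Spi1, whose product PU.1 and GATA1 inhibit each other, measured 8.41, 8.85, 8.29 and 8.53 in Δ/Δ 1 to 4, against 8.04, 8.41 and 8.41 in fl/fl 1 to 3, and its log2 fold change of 0.24 (SE 0.16; exact permutation p = 0.343) was within the spread. Fli1, which favours megakaryocytes where KLF1 favours red cells, was at -0.10 (SE 0.21). The arrays of 5 of the 19 did not overlap between genotypes, all with changes under 1.5-fold. Of these, 2 were higher and 3 lower, against 3.51% and 2.46% of all genes. Cebpa (-0.41, SE 0.07), Cebpe (-0.32, SE 0.09) and the stem cell and megakaryocyte factor gene Erg (-0.41, SE 0.17) were lower in every Cebpa Δ/Δ array, and the lymphoid factor genes Ikzf1 (0.38, SE 0.14) and Ebf1 (0.19, SE 0.08) were higher. Of the embryonic globin genes that BCL11A represses, Hbb-y was at 0.14 (SE 0.08), Hbb-bh1 at -0.01 (SE 0.04) and Hba-x at 0.07 (SE 0.11), and 0 of 3 passed. The mean levels of Hbb-y and Hbb-bh1 lay at percentiles 19.6 and 5.4 of all genes, near background. Their values therefore cannot show whether this repression changed.

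The genes nearest in pattern were found by the mean absolute difference, over the 7 arrays, between log2 values centred on each gene's own mean. Nearest to Gata1 outside the 10 genes were the metallothionein gene Mt1 (0.17), Paqr9 (0.17) and Ache (0.18), the gene of acetylcholinesterase, an enzyme also found on red cells. Nearest to Klf1 were the water channel gene Aqp1 (0.19), the mitochondrial carrier gene Slc25a21 (0.21) and Alas2 (0.22), the erythroid first enzyme of heme synthesis. Nearest to Epor were Pkhd1l1 (0.09), Emilin2 (0.10) and Nxpe4 (0.13). Among the 10 genes, Epor was nearest to Gata1 (0.25) and Gata1 nearest to Klf1 (0.41). Over 7 arrays of 2 genotypes, this likeness holds the genotype difference as well as the variation within a genotype.

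Markers of erythroblasts moved with Gata1, Klf1 and Epor. Of 15 listed erythroblast and red cell markers 9 were measured, and 8 were higher at the study's thresholds. All 8 are also among the 24 erythroid targets that were higher, so this count is not a separate result. Over all genes 1.57% were higher and 0.617% lower. The marker lists too were chosen with earlier results of these data known. Summed intensities of the 9 markers were 5258 to 8970 in Cebpa Δ/Δ and 881 to 2629 in Cebpa fl/fl HSCs. The most abundant, the carbonic anhydrase gene Car1, measured 12.22, 11.62, 12.15 and 11.69 in Δ/Δ 1 to 4, against 9.12, 10.73 and 7.87 in fl/fl 1 to 3, and its lowest array was fl/fl 3. The call of Car1 was lost without fl/fl 1 and Δ/Δ 3 together. Tfrc, the transferrin receptor gene, was at 1.29 (SE 0.32) and Rhag at 3.08 (SE 0.51). These markers are also targets of GATA1 and KLF1, and whether erythroid cells in the sorts contributed to the levels of the 10 genes was not tested. GATA1, TAL1, NF-E2, FOG1 and GFI1B also act in megakaryocytes. Of 12 measured megakaryocyte and platelet markers 0 passed in either direction (median -0.05), with summed intensities of 1750 to 2050 in Cebpa Δ/Δ and 1732 to 2241 in Cebpa fl/fl HSCs. The 2 most abundant, Cd9 (-0.31, SE 0.22) and Pf4 (-0.18, SE 0.49), were within the spread. Of 15 macrophage markers 6 were higher and 0 lower, with summed intensities of 1120 to 2414 in Cebpa Δ/Δ and 612 to 776 in Cebpa fl/fl HSCs. Of 12 markers of mature neutrophils 10 were lower and 0 higher, with summed intensities of 306 to 1091 in Cebpa Δ/Δ and 6953 to 16757 in Cebpa fl/fl HSCs. The part of these cells in the values of the 10 genes was not tested.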

How the data were processed

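The members and gene lists were chosen with earlier results of these data known. RNA from sorted HSCs was amplified (NuGEN) and each sample was run on 1 Affymetrix Mouse Gene ST array. The intensity values deposited by the authors were linear and had been computed with the Robust Multichip Average, per the study's methods in Partek Genomics Suite; the submitters' notes name RMA and affy. This normalization scales the arrays to each other, which hides changes in the RNA content of a cell. No pseudocount was added before log2 was taken. Of 35556 probe sets, 21789 had 1 gene symbol, 1621 several (not used) and 12146 none here; symbols were updated by Entrez number for 21698, and the brightest probe set was kept for each of 999 genes with more than 1. 0 columns of per-sample values were unused. Genotype (Cebpa Δ/Δ minus Cebpa fl/fl) was fitted over all 19938 genes with limma 3.58.1 (lmFit and eBayes, R 4.3.3) and Benjamini-Hochberg adjustment; the thresholds are those of the study's results, and its methods, as read here, name no test for the arrays. Single values were compared by an exact two-sided permutation test over 35 splits. The fit was tested on simulated data. Whether the samples of a group came from separate mice rests on the series' design, which counts as many mice as arrays. The labels' text speaks of triplicates per genotype, which does not match the 4 Cebpa Δ/Δ arrays. The p-values measure only the spread between these samples. Promoter windows came from RefSeq (GRCm38.p6); the build behind the probe sets is not given in the sources used here. Named genes were the 10 members, Cebpa, Spi1, Gata2, Fli1, the gate genes, the 3 genes of each other list with the smallest limma p among those under 0.05, the 2 most abundant of each marker list and the 3 nearest to Gata1, Klf1 and Epor in pattern; others were named after their values were seen. Alternatives covered normalization, low values, moderation, array weights, probe sets, replicate number and each array left out.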

Additional observations from a re-analysis of the deposited data

Results flagged for a closer look

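Of 57 named genes, 3 had 1 Cebpa Δ/Δ array far from the other 3, by the size of its gap to the nearest of them relative to their range, which chance gives in about 1 of 20 groups. Bcl11a was at 9.91 in Δ/Δ 3, against 10.41 to 10.47 in the other Cebpa Δ/Δ arrays. Ssbp3 was at 8.61 in Δ/Δ 2, against 8.37 to 8.40. The mast cell protease gene Cpa3 was at 7.10 in Δ/Δ 4, against 8.57 to 8.87, with 5.52, 6.34 and 5.05 in fl/fl 1 to 3.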

How the results depend on the processing

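The number of the 10 genes higher at the study's thresholds was 3, stayed at 3 under each of the 10 alternatives of normalization, low values, fitting and probe sets that kept all arrays and had no replicate term, ranged from 2 to 4 with single arrays left out (2 without fl/fl 1 or Δ/Δ 3, which dropped Epor, and 4 without fl/fl 2, which added Gfi1b) and was 2 without both fl/fl 1 and Δ/Δ 3. None was lower and 0 passed the adjusted threshold under any of the 19 alternatives. Gata1 (log2 fold change 1.15 to 1.73) and Klf1 (1.84 to 2.41) stayed past both thresholds in all 19, and Epor (0.76 to 1.28) in 15. The count of members whose arrays did not overlap ranged from 3 to 5 higher and from 1 to 2 lower with single arrays left out (5 higher without Δ/Δ 4 and 2 lower without Δ/Δ 2), and was 0 lower with array medians subtracted, a scaling that moved the median of all genes to 0.04. Small values changed sign: Zfpm1 was at 0.0046 with array medians subtracted, and Bcl11a was at 0.0122 with medians subtracted and 0.0145 with array weights. With single arrays left out, Bcl11a ranged from -0.0858 to 0.10, Fli1 from -0.2406 to 0.0445 and Pf4 from -0.5606 to 0.354, and without fl/fl 1 and Δ/Δ 3 Bcl11a was at 0.0825 and Fli1 at 0.0466. The cause was not tested. Of 31 named genes past the thresholds 22 stayed past them in every alternative, and of 26 others 3 passed in some. The alternatives for the counts of erythroid targets (24) and erythroblast markers (8, all among the 24) were added after the data were seen. These counts ranged from 23 to 25 and from 7 to 9 with single arrays left out. Without fl/fl 1 and Δ/Δ 3 they were 17 and 6. Over all genes, the 314 higher became 223 to 404 with single arrays left out and 169 without both. With limma, the adjusted threshold was passed by 5 genes among those above the median level, by 1 without Δ/Δ 2, 1 without Δ/Δ 4 and 3 without fl/fl 3. The 5 included the erythroid targets Mfsd2b and Slc4a1 and the neutrophil genes Lcn2 and Ngp (each limma adjusted p = 0.0491).

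Same-numbered arrays deviated from their group means with correlations of -0.02, 0.10 and -0.18 across genes. For differently numbered arrays the correlations ran from -0.15 to 0.27. With so few arrays, these values cannot show whether the replicate numbers in the labels paired the samples. With the replicate number as a block, 2 of the 10 genes were higher, and over all genes 292 were higher and 120 lower. Epor was at 1.21 (limma adjusted p = 0.7635). No fl/fl array shares the number of Δ/Δ 4, so this fit gave Epor the same log2 fold change as leaving out Δ/Δ 4.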

Other observations

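Some macrophages surround and feed erythroblasts in the marrow. Spic, the factor of red pulp macrophages that recycle iron, measured 7.87, 6.88, 6.90 and 7.64 in Δ/Δ 1 to 4, against 4.55, 4.56 and 5.43 in fl/fl 1 to 3 (log2 fold change 2.48, SE 0.34). The heme oxygenase gene Hmox1 (2.08, SE 0.37) and the complement gene C1qc (2.02, SE 0.43) were highest in Δ/Δ 1 and Δ/Δ 3, the arrays in which Gata1, Klf1 and Epor were highest. Csf1r (0.21, SE 0.16) and Cd68 (0.43, SE 0.26), which are found in most macrophages, did not pass.

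Mast cells also depend on GATA1 and GATA2. Of 14 mast cell and basophil markers, Cpa3 (2.66, SE 0.50) and Gzmb (1.34, SE 0.42) passed the study's thresholds upward and 0 downward (median 0.09). Over all genes 1.57% were higher and 0.617% lower. The other 12 markers did not pass, among them the mast cell protease genes Cma1 (0.07, SE 0.06), Mcpt4 (0.11, SE 0.11) and Tpsb2 (-0.08, SE 0.12). The mean levels of these protease genes were low, at percentiles 14.1, 10.3 and 26.8 of all genes. Summed intensities of the 14 were 2195 to 2947 in Cebpa Δ/Δ and 2471 to 2753 in Cebpa fl/fl HSCs. These sums rest mostly on the 2 most abundant markers, Kit (-0.34, SE 0.15) and Gata2 (-0.29, SE 0.23), which are not specific to mast cells. The sums therefore cannot show a change in the other markers. The groups did not overlap in Cpa3 or Gzmb, but the call of Gzmb was lost without fl/fl 1 (1.16), without fl/fl 3 (1.27) and without fl/fl 1 and Δ/Δ 3 (0.88).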
